A study of Mus musculus with 9 samples.

Results

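The natriuretic peptide system was examined in mouse heart as 7 genes: the peptide genes Nppa, Nppb and Nppc, the receptor genes Npr1, Npr2 and Npr3, and Corin, the gene of a processing enzyme. The genes were chosen by name, and their probes were taken as every non-control probe whose accession maps to one of these symbols. This gave 13 probes, printed as 31 spots, among 41174 non-control probes on the array, of which 28223 carry a symbol (19096 symbols). All 13 probes entered the test. Total RNA came from hearts of 4 RORasg/sg mice (homozygous for staggerer, an intragenic deletion in Rora, which encodes the nuclear receptor RORalpha) and 5 wild-type (WT) mice. All 9 mice were male, labelled C57BL/6, 3 to 4 months old, on an NIH31 diet after weaning at 3 weeks, and untreated. Staggerer is a germline mutation that every cell type carries, so the hearts do not represent a loss in cardiomyocytes alone, and the labels name the heart without its chambers. RNA of each heart went onto an Agilent array of its own with a single dye, and the title of the series names RORalpha and hypertrophy of the heart.

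Natriuretic peptides are hormones that the heart releases on stretch. Atrial natriuretic peptide (ANP, from Nppa) and B-type natriuretic peptide (BNP, from Nppb) act on the kidney and vessels to lower blood volume and pressure, while C-type natriuretic peptide (CNP, from Nppc) acts mainly locally. ANP and BNP bind the guanylyl cyclase receptor encoded by Npr1, CNP binds that of Npr2, and both raise cGMP, whereas Npr3 encodes a receptor that clears the peptides. Corin is a serine protease on cardiomyocytes that cuts pro-ANP. Nppa is a gene of the adult atria that ventricles express in the fetus and again in hypertrophy, and Nppb is a stretch-induced ventricular and atrial gene.

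Values below are either the deposited processed signal, a linear intensity, or its log2 minus the 75th percentile of the array's probes, called the scaled log2 level. That 75th percentile ran from 259 to 760 in RORasg/sg hearts and from 423 to 669 in WT hearts. RORasg/sg hearts 2, 3 and 4 and WT heart 4 had one under 500 and are called the dimmer arrays, and the other 5 are the brighter arrays, which hold a single RORasg/sg heart (number 1). WT heart 4 and RORasg/sg hearts 2, 3 and 4 also stood apart across all probes, with a highest correlation to any other array of 0.904 in WT heart 4 and at most 0.897 in the 3 RORasg/sg hearts, against 0.969 or more in the other 5. Slide 1 held RORasg/sg 1 and 2 with WT 1 and 2, slide 2 held RORasg/sg 3 and 4 with WT 3 and 4, and slide 3 held WT 5. Differences are log2, RORasg/sg minus WT, and their median over the 36402 probes tested was 0.32, so differences are to be read against that value. Rora, the mutated gene, differed by -4.13 (SE 0.610) on probe A_51_P477779 and by -5.34 (SE 0.821) on A_52_P652442, both with RORasg/sg hearts wholly below WT hearts, and by -1.07 (SE 0.773), with overlapping groups, on A_52_P652950. The probes' positions against the deleted part are not known, so they do not check the genotype. Of the cardiomyocyte markers, Actc1, cardiac actin, was bright in both groups, with scaled log2 levels of at least 5.09 in RORasg/sg hearts and at least 7.53 in WT hearts. Not every marker was so bright in each heart. Myh6 read 6.53, 4.28, 0.69 and 0.13 in RORasg/sg hearts 1 to 4, against 4.66 to 6.06 in WT hearts.

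None of the 7 genes passed the threshold in the comparison of RORasg/sg with WT hearts (limma, Benjamini-Hochberg adjusted p under 0.05 over all 36402 probes). Adjusted p ran from 0.315 to 0.616 over the 13 probes. The same rule called 0.00275% of tested probes lower and 0% higher. At an unadjusted p under 0.05, 2 of the 13 probes had lower mean signal in RORasg/sg hearts, the brightest probe of Nppa and that of Nppb, and 0 had higher, against 8.22% lower and 4.55% higher of all tested probes. For 1 of the 13 probes, that of Nppb, the 4 RORasg/sg hearts lay wholly below the 5 WT hearts, and 1.83% of tested probes did so. The mean was lower in RORasg/sg hearts for 9 of the 13 probes and higher for 4, whereas 38.1% of all tested probes were lower and 61.9% higher. The median difference of the 13 probes was -1.07. No test was made of whether the 7 genes differ from other genes.

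**Figure D1:**
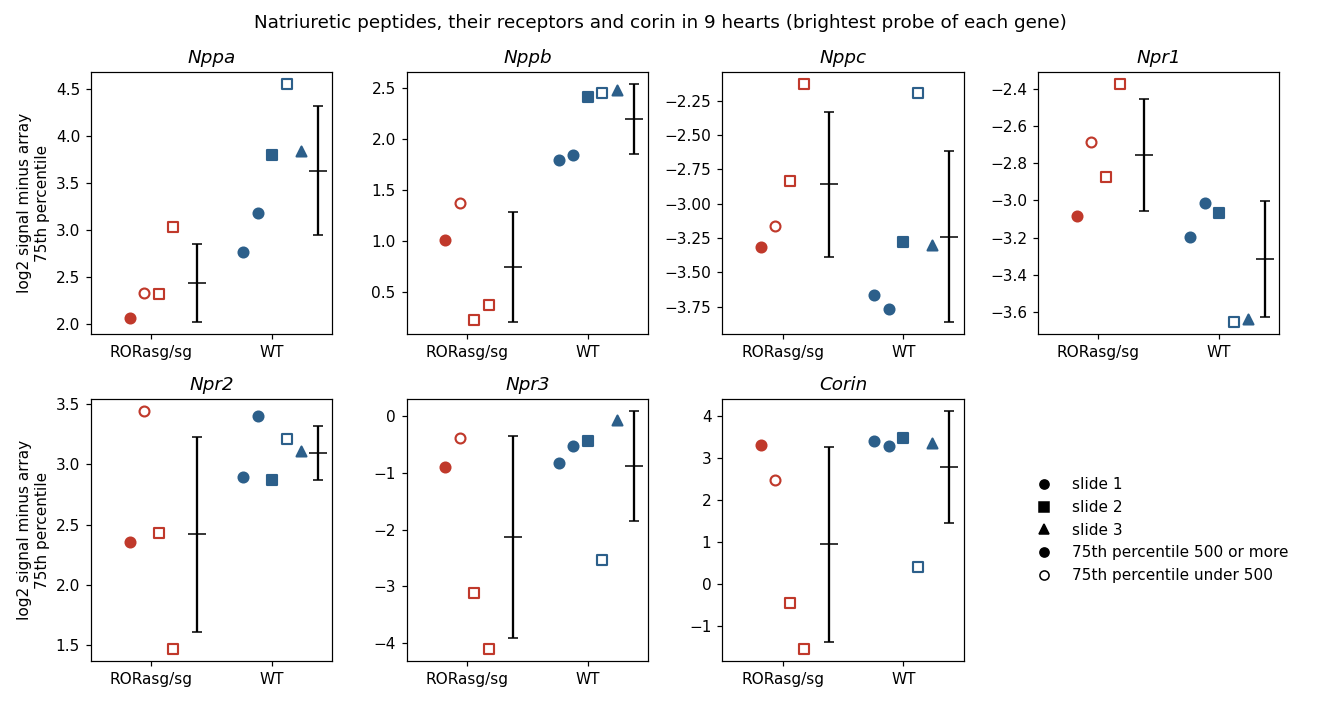
Scaled log2 level (log2 processed signal minus the array's 75th percentile) of the brightest probe of each gene, RORasg/sg hearts left in red and WT hearts right in blue. Circles, squares and triangles are slides 1, 2 and 3, open symbols are the dimmer arrays, and bars give the mean ± SD (n = 4 and n = 5). Only Nppb shows groups that do not overlap, and Corin and Npr3 spread widest.

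Nppb, the BNP gene, stood lowest against WT in the ligand group. Its brightest probe, A_51_P426195, gave processed signals of 1533, 723, 446 and 334 in RORasg/sg hearts 1 to 4, against 2326, 2261, 3302, 2311 and 2978 in WT hearts 1 to 5. On the scaled log2 level the RORasg/sg hearts read 1.01, 1.37, 0.22 and 0.37, and the WT hearts 1.80, 1.84, 2.42, 2.45 and 2.48. Every RORasg/sg heart was below every WT heart, on both scales. For unscaled signals the share of all probes so separated was not counted, and the median difference of all probes was -0.26. The means were 0.744 ± 0.540 (SD, n = 4) in RORasg/sg and 2.20 ± 0.344 (SD, n = 5) in WT hearts, a log2 difference of -1.45 (SE 0.420) or 2.74-fold less in RORasg/sg (limma, unadjusted p = 0.00488, adjusted p = 0.315). The adjusted p was 0.0193 without RORasg/sg heart 1, a fit in which all 3 remaining RORasg/sg arrays are dimmer ones and 12846 of 36402 probes were called. It was 0.00531 with array weights, where 17470 probes were called, and over all alternatives it lay between 0.00531 and 0.9998.

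The other Nppb probe, A_52_P559955, differed by -1.06 (SE 0.488). It read 0.86, 0.49, -0.52 and -0.73 in RORasg/sg hearts 1 to 4, against 0.75, 0.42, 1.39, 1.28 and 1.55 in WT hearts 1 to 5. Here RORasg/sg hearts 1 and 2 read close to WT hearts 1 and 2, which shared their slide, so the groups overlapped, while hearts 3 and 4 lay below all WT hearts. Within slide 1 this probe differed by 0.086 and the brighter Nppb probe by -0.63. Within slide 2 the differences were -1.96 and -2.14. In the 5 brighter arrays, where RORasg/sg heart 1 is the sole mutant and the median of all probes was -0.27, the brighter probe differed by -1.12 and the dimmer probe by -0.17. In the 4 dimmer arrays, where the median of all probes was 0.44 and WT heart 4 is the sole WT heart, they differed by -1.79 and -1.54.

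Nppa, the ANP gene, was measured by 2 probes that went opposite ways, each printed as 10 spots per array. The bright probe, A_52_P580582, gave processed signals of 3178, 1407, 1915 and 2119 in RORasg/sg hearts 1 to 4, against 4583, 5717, 8640, 9989 and 7717 in WT hearts 1 to 5. After scaling, these became 2.06, 2.33, 2.33 and 3.03 in RORasg/sg hearts and 2.78, 3.18, 3.80, 4.56 and 3.85 in WT hearts. The unscaled signals do not overlap, but after scaling RORasg/sg heart 4 lay above WT heart 1. Without scaling the median difference of all probes was -0.26, and the share of probes so separated was not counted. The log2 difference was -1.20 (SE 0.435), 2.29-fold less in RORasg/sg (limma, unadjusted p = 0.0179, adjusted p = 0.345), from means of 2.44 ± 0.416 (SD, n = 4) in RORasg/sg and 3.63 ± 0.685 (SD, n = 5) in WT hearts. The difference was negative within slide 1 (-0.78), within slide 2 (-1.50), in the brighter arrays (-1.34) and in the dimmer arrays (-2.0).

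The dim Nppa probe, A_51_P361340, gave signals of 166, 33.3, 534 and 131 in RORasg/sg hearts 1 to 4, against 116, 69.1, 127, 77.4 and 71.5 in WT hearts 1 to 5. RORasg/sg heart 3 was the highest of the 9 hearts and RORasg/sg heart 2 the lowest in signal. The log2 difference of the scaled values was 1.23 (SE 0.647, limma adjusted p = 0.397), the reverse of the bright probe, and the mean of both probes per array put Nppa at 0.018. Without RORasg/sg heart 3 the dim probe differed by 0.59, within slide 1 by 0.22 and within slide 2 by 2.12. Dim minus bright probe, taken within each array, averaged -3.88 ± 1.49 (SD, n = 4) in RORasg/sg and -6.30 ± 0.665 (SD, n = 5) in WT hearts. An exact two-sided permutation test of that quantity over the 126 splits gave p = 0.0159 (adjusted p = 0.111 over the 7 such contrasts computed). The smallest p that the 126 splits allow in this test is 0.00794. With the p of the other contrasts as computed, even that value would not pass the threshold after adjustment. The adjusted p thus cannot decide whether the disagreement of the probes differs between the groups. Where either probe lies in the transcript is not given in the sources used here.

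Replicate spots give the spread of printing and reading within an array, and none of that from labelling, hybridisation or array brightness. The spots of the bright Nppa probe had a within-array SD of 0.0434 to 0.0882 (log2) over the 9 arrays, against an SD between hearts of 0.416 in RORasg/sg and 0.685 in WT. For the dim probe the within-array SD was 0.0605 to 0.257 over 8 to 10 spots left after flagged spots were removed, against 1.54 in RORasg/sg and 0.368 in WT hearts. The 534 of RORasg/sg heart 3 came from 10 spots between 493 and 603, whereas the 10 spots of WT heart 3, on the same slide, lay between 117 and 140. These spots share 1 labelled sample and are not replicates of a heart.

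**Figure D2:**
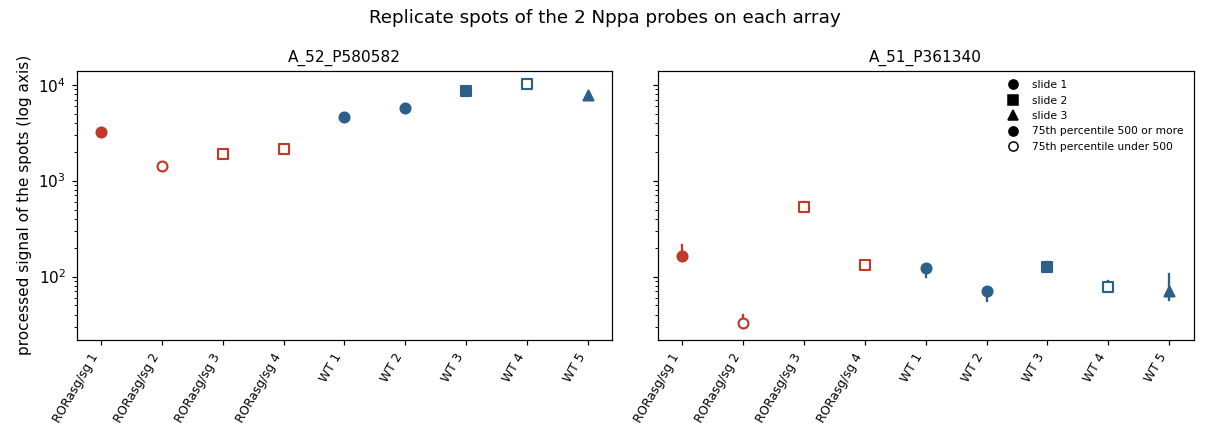
Processed signal (log axis) of the replicate spots of the 2 Nppa probes, with RORasg/sg hearts in red and WT hearts in blue. Symbols give the median of 8 to 10 spots and lines the lowest and highest spot, with shapes for slides and open symbols for dimmer arrays. Spots of one array lie close together, the bright probe is lower in all RORasg/sg hearts before scaling, and the dim probe is highest in RORasg/sg heart 3.

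Nppa and Nppb are neighbours on chromosome 4, on the same strand with no annotated gene between them in GRCm38.p6. On the brightest probe of each gene, their scaled log2 levels over the 9 hearts had a Pearson correlation of 0.752. It is given as a description since the hearts share slides and brightness sets. On the same probes, Nppb minus Nppa within an array averaged -1.70 ± 0.83 (SD, n = 4) in RORasg/sg and -1.44 ± 0.413 (SD, n = 5) in WT hearts. These did not differ by more than their spread (exact two-sided permutation p = 0.571, adjusted p = 0.935 over the same 7 contrasts). The dim Nppa probe, whose difference had the other sign, was used in neither the correlation nor this contrast. The 250 bases before each annotated start are shown because both genes had lower mean signal on their bright probes in hearts mutant for a DNA-binding receptor. They are RefSeq sequence of build GRCm38.p6, plus strand, for Nppa at chr4:148000472-148000721 and for Nppb at chr4:147985650-147985899. Capitals mark matches on either strand to the motifs named next.
Nppa: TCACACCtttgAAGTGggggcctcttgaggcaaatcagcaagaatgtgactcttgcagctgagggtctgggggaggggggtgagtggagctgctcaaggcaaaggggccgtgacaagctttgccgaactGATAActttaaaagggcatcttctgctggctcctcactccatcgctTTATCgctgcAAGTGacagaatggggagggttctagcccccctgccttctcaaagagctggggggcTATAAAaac
Nppb: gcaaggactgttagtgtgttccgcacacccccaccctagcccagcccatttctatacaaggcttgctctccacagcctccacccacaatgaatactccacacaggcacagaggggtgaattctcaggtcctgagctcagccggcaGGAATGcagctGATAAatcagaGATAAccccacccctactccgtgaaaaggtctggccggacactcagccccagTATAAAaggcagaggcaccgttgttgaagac

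Motifs were searched on both strands, and no matches overlapped in these windows. The core GATAA of GATA factors, which regulate both genes, occurs at -121 and, reversed, at -75 in Nppa, and at -94 and -83 in Nppb, counted from the annotated start. It is found in 22.6% of the 32851 promoter windows of this length. AAGTG, the core bound by NKX2-5, a cardiac homeobox factor, occurs at -239 and -65 in Nppa, against 40.7% of windows. The T-box half-site GGTGTGA occurs reversed at -250 in Nppa (3.33% of windows), and the TEAD element CATTCC reversed at -105 in Nppb (12.6% of windows). TATAAA occurs at -9 in Nppa and at -31 in Nppb (12.4% of windows). The nuclear receptor half-site AGGTCA, part of the element that ROR proteins bind, has no match in either window and is found in 14.02% of windows. The CArG box of serum response factor has none either (1.47% of windows). A match of letters is no evidence of binding, and the absence of one says nothing of the factor.

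Nppc, the CNP gene, was dim and differed little. Its probe A_51_P401894 had signals of 31.2 to 76.5 in RORasg/sg hearts and 46.4 to 92.6 in WT hearts, and was well above background on all 9 arrays. The scaled levels were -3.31, -3.16, -2.83 and -2.13 in RORasg/sg hearts 1 to 4, against -3.66, -3.76, -3.28, -2.19 and -3.30 in WT hearts 1 to 5. Heart 4 of each group was the highest of its group, and the groups overlapped. The difference of 0.38 (SE 0.462, limma adjusted p = 0.616) lay next to the median of all probes, 0.32. Without scaling between arrays it was -0.20, again next to that median, then -0.26.

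Npr1, the receptor of ANP and BNP, had somewhat higher scaled levels in RORasg/sg hearts, -3.08, -2.69, -2.87 and -2.37 for hearts 1 to 4, against -3.20, -3.02, -3.07, -3.65 and -3.64 in WT hearts 1 to 5. Of its RORasg/sg hearts, number 1 lay among the WT hearts and the other 3, the dimmer arrays, lay above all of them. The difference was 0.56 (SE 0.383, limma adjusted p = 0.430), against 0.32 for the median of all probes. Without scaling it was -0.017, against a median of -0.26. Signals were 43.4 to 89.8 in RORasg/sg and 33.6 to 77.9 in WT hearts on probe A_51_P182693. The sign of the difference thus rests on the scaling, while its place above the median of all probes does not.

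Npr2, the CNP receptor, was bright on A_51_P518940, with signals of 3878, 3033, 2055 and 715 in RORasg/sg hearts 1 to 4, against 4979, 6635, 4507, 3908 and 4609 in WT hearts 1 to 5. All 4 RORasg/sg signals lay below the WT signals before scaling, where the median difference of all probes was -0.26 and the share so separated was not counted. After scaling, RORasg/sg heart 2 (3.44) became the highest of the 9 and heart 4 (1.47) the lowest, with WT hearts between 2.86 and 3.40. The scaled difference was -0.67 (SE 0.431, limma adjusted p = 0.417). The other probes of Npr2 disagreed: A_52_P489373 differed by -1.07 (SE 0.686) and A_52_P565549 by 0.60 (SE 0.506), both with overlapping groups. On A_52_P489373, RORasg/sg hearts 1 to 4 read -1.62, -3.34, -3.40 and -3.89, against -1.41, -0.81, -1.20, -3.77 and -2.77 in WT hearts 1 to 5. The low readings were thus those of the 4 dimmer arrays, of both genotypes, together with WT heart 5.

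Npr3, the clearance receptor, had lower mean signal on all 3 of its probes, by -1.25 (SE 0.798) on A_51_P247184, -1.26 (SE 0.671) on A_51_P356883 and -1.57 (SE 0.725) on A_52_P400798 (limma adjusted p from 0.391 to 0.417). With another background correction (normexp) the same probes differed by -0.56, -0.46 and -0.27, against a median of 0.37 over all probes. The sizes thus depend on how background is handled. The probes did not agree on which hearts were low. On A_51_P247184 the RORasg/sg hearts 1 to 4 read -0.89, -0.38, -3.11 and -4.11, against -0.82, -0.52, -0.43, -2.54 and -0.07 in WT hearts 1 to 5, so that WT heart 4 was low with RORasg/sg hearts 3 and 4. On A_51_P356883 they read -1.59, -2.19, -4.46 and -3.63 in RORasg/sg, against -2.35, -2.41, -1.68, -0.15 and -1.95 in WT hearts, with WT heart 4 the highest of all. A_52_P400798 had the same WT heart highest, at -0.95 against -3.46 to -2.82 in the other WT hearts, and RORasg/sg hearts read -2.57, -5.0, -3.45 and -5.87. Only 2 of the 4 RORasg/sg arrays, and all 5 WT arrays, read the last probe as well above background. Within slide 1, A_51_P247184 differed by 0.036, A_51_P356883 by 0.49 and A_52_P400798 by -0.87. Within slide 2 the same probes differed by -2.12, -3.13 and -2.45. In the 5 brighter arrays A_51_P247184 differed by -0.43, A_51_P356883 by 0.51 and A_52_P400798 by 0.50, so the 3 probes did not share a direction there.

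**Figure D3:**
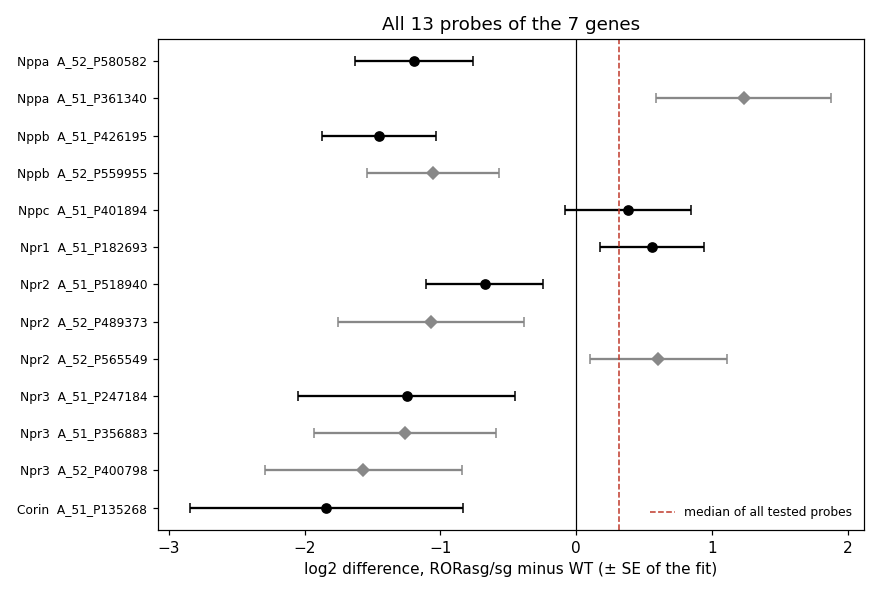
Log2 difference, RORasg/sg minus WT, of all 13 probes with the SE of the limma fit as bars, black circles for the brightest probe of each gene and grey diamonds for its other probes. The dashed line is the median of all tested probes (0.32). The 2 Nppa probes fall on opposite sides, as do 2 of the 3 Npr2 probes against the third, and the 3 Npr3 probes fall on the same side.

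Corin had the widest spread of the 7 genes. Probe A_51_P135268 gave signals of 7547, 1545, 279 and 88.1 in RORasg/sg hearts 1 to 4, against 7063, 6163, 6858, 558 and 5467 in WT hearts 1 to 5. The highest and the lowest of the 9 signals, 85.6-fold apart, were both from RORasg/sg hearts. After scaling, RORasg/sg hearts read 3.31, 2.47, -0.45 and -1.55, and WT hearts 3.40, 3.29, 3.47, 0.40 and 3.35. RORasg/sg heart 1 was at the level of WT hearts 1, 2, 3 and 5, and WT heart 4 was low with RORasg/sg hearts 3 and 4. The difference of -1.84 (SE 1.0, limma adjusted p = 0.400) was -0.066 in the 5 brighter arrays and -0.24 in the 4 dimmer arrays. The medians of all probes in these sets were -0.27 and 0.44, so Corin lay above the median in the brighter arrays. Within slide 1 it was -0.46 and within slide 2 it was -2.94. It came to -2.63 without RORasg/sg heart 1 (adjusted p = 0.0642) and to -1.01 without RORasg/sg heart 4, and with the log2 75th percentile of each array as a covariate it was -0.43.

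**Figure D4:**
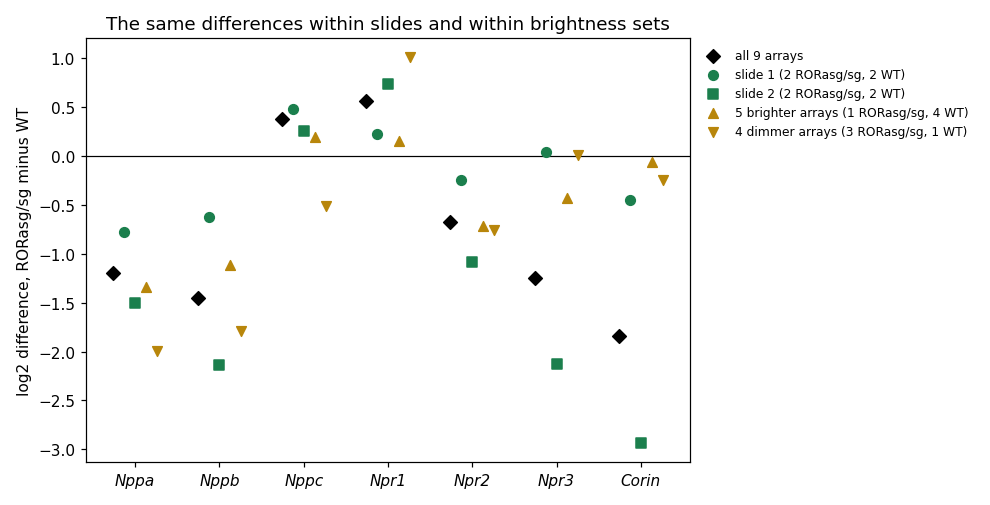
Log2 difference, RORasg/sg minus WT, of the brightest probe of each gene over all 9 arrays (black), within slides 1 and 2 (green) and within the 5 brighter and 4 dimmer arrays (gold). Nppa, Nppb, Npr2 and Corin are negative in every set drawn, but Corin lies above the median of all probes, -0.27, in the brighter set. The Corin values in the brighter and dimmer sets are -0.066 (SE 0.179) and -0.24 (SE 1.74), and each of these sets holds a single heart of one genotype.

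Levels of cell type markers also differed between hearts, and in part along with the members. RORasg/sg hearts 1 to 4 had mean scaled levels of 5.84, 5.44, 3.72 and 3.78 for 7 general cardiomyocyte markers, and WT hearts lay between 5.72 and 5.81. All 7 had lower mean signal in RORasg/sg hearts, with 0 past the threshold and a median difference of -0.995. Over all 27773 genes, taken at their brightest probe, 0.0036% passed the threshold lower and 0% higher, 6.38% lower and 4.73% higher had an unadjusted p under 0.05, 1.71% lower and 1.13% higher had groups that did not overlap, and 33.2% had a lower and 66.8% a higher mean. Myh6, the adult alpha myosin heavy chain, differed by -2.74 (SE 1.09) and Actc1 by -1.32 (SE 0.487). The 5 ventricular markers averaged 1.19 to 2.93 in RORasg/sg hearts, against 2.84 to 3.71 in WT hearts, with a median difference of -1.14. Of these, Myl2, the ventricular light chain, differed by -1.28 (SE 0.445) and Myh7, the fetal and slow myosin heavy chain, by -1.66 (SE 0.530). RORasg/sg hearts 3 and 4, low for Nppb and Corin, were also the lowest for both lists. WT heart 4, low for Corin, read 5.78 for the general list, within the WT range, but was the lowest WT heart for the ventricular list, at 2.84. RORasg/sg heart 1 had the highest level of the general list and read 2.93 for the ventricular list. Its Nppb level lay below every WT heart on the brighter probe only. On the other Nppb probe it read 0.86, above WT hearts 1 (0.75) and 2 (0.42). In bulk RNA, fewer cells of a type and less RNA per cell cannot be told apart, and the part of these markers in the values of Nppb and Corin was not tested.

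For 10 atrial markers, the mean level ran from -1.64 up to -0.94 over RORasg/sg hearts and was -1.73 to -1.19 in WT hearts, with 6 higher and 4 lower, 0 past the threshold and a median difference of 0.58. Myl7, the atrial light chain, differed by 1.60 (SE 0.490) and Bmp10, an atrial growth factor, by 1.22 (SE 0.558), while Stard10 differed by -1.58 (SE 0.532) and Kcnj3, an atrial potassium channel, by -1.69 (SE 0.659). The share of atrium in each sample is not given by the labels, and its part in the Nppa values was not tested. The 8 endocardial and endothelial markers, a set of cells known to express Npr3, averaged 1.10, -0.23, -0.72 and -0.74 in RORasg/sg hearts 1 to 4, against 0.10 to 0.86 in WT hearts. Of these 8 genes, 5 had lower and 3 higher means, with 0 past the threshold, and 3 lower and 2 higher at an unadjusted p under 0.05. Pecam1 differed by -1.50 (SE 0.628) and Tek by -2.67 (SE 1.03), while Emcn differed by 1.21 (SE 0.474) and Plvap by 1.27 (SE 0.549). Tek was well above background on 3 of 4 RORasg/sg arrays and 5 of 5 WT arrays, so the size of its difference is uncertain. RORasg/sg hearts 3 and 4 were low for the mean of this list and for Npr3 A_51_P247184. In these 2 hearts Tek read -3.73 and -4.95, and Tie1, well above background on 2 of 4 RORasg/sg arrays, -6.84 and -5.39. Emcn read 4.12 and 3.49 there, above all WT hearts. The low mean thus includes values near background, and the genes of the list did not share a direction. The part of this list in the Npr3 value was not tested.

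**Figure D5:**
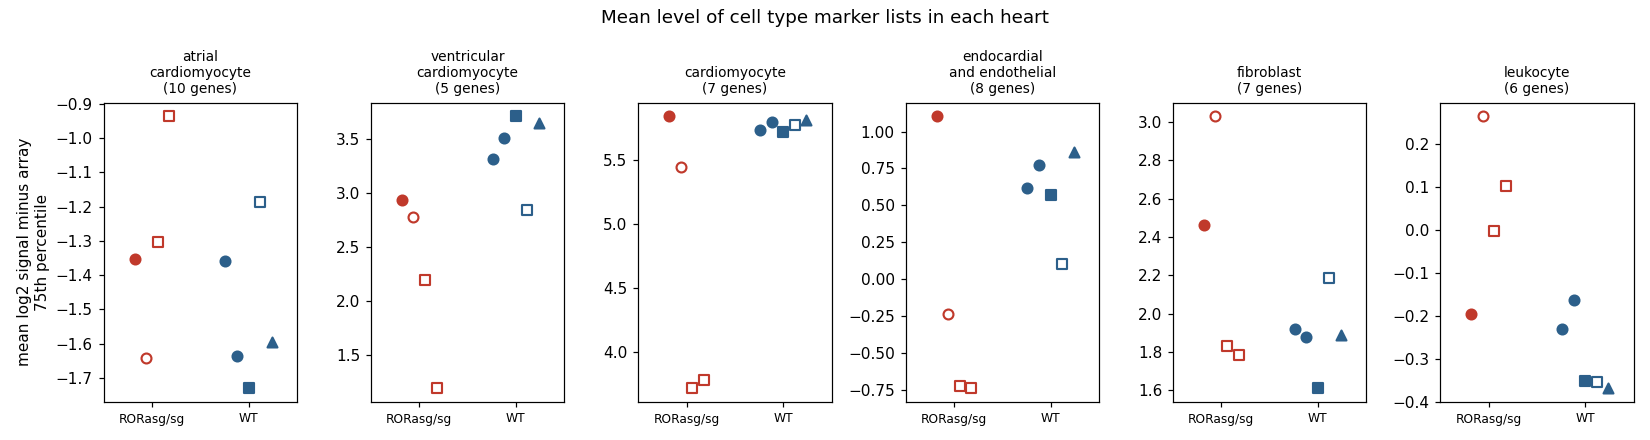
Mean scaled log2 level of 6 marker lists in each heart, RORasg/sg left in red and WT right in blue, with circles, squares and triangles for slides 1, 2 and 3 and open symbols for dimmer arrays. RORasg/sg hearts 3 and 4 sit at 3.72 and 3.78 for general cardiomyocyte markers, against 5.72 to 5.81 in the WT hearts.

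Genes acting before and after the receptors were counted from lists chosen for this report. Of 6 genes of prohormone processing and peptide clearance, 2 had lower and 4 higher mean signal in RORasg/sg hearts, with 0 past the threshold in limma, 1 lower and 1 higher at an unadjusted p under 0.05, and a median difference of 0.56. The same median over all 27773 genes was 0.41. Mme, the gene of neprilysin, which degrades natriuretic peptides, read -2.38, -6.24, -7.58 and -7.01 in RORasg/sg hearts 1 to 4, against -2.08, -1.24, -1.64, 0.72 and -0.99 in WT hearts 1 to 5. Every RORasg/sg heart was below every WT heart, and 1 of 4 RORasg/sg arrays and 5 of 5 WT arrays read the probe as well above background. The fitted difference was -4.76 (SE 0.964, limma adjusted p = 0.315), but the probe was kept through its WT values and most RORasg/sg values were not well above background, so neither this size nor the separation of the groups is a measured one. The other Mme probe gave -0.36. Pcsk6, the convertase that activates corin, differed by 1.55 (SE 0.645). Its RORasg/sg hearts 2, 3 and 4 read 4.20 to 5.05, while RORasg/sg heart 1 read 1.57, below all WT hearts, which read 1.77 to 3.21. Dpp4, a peptidase, differed by 0.93 (SE 0.505), though by -2.08 on another of its 3 probes, and Ide, the insulin-degrading enzyme, by -1.26 (SE 0.807).

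In the cGMP list 16 of 17 genes were measured, 7 with lower and 9 with higher mean signal, 0 past the threshold, and a median difference of 0.081. Pde3a, a phosphodiesterase that cGMP inhibits, differed by -2.88 (SE 1.22), and 2 of the 4 RORasg/sg arrays read it well above background. It read 1.09, -0.93, -5.58 and -4.83 in RORasg/sg hearts 1 to 4, against 0.72, 0.87, 0.78, -1.67 and 0.90 in WT hearts 1 to 5. RORasg/sg hearts 3 and 4 and WT heart 4 were the low ones of their groups, as they were for Corin. Pde3b differed by -1.47 (SE 0.701) and Vasp, a substrate of the cGMP-dependent kinase, by 1.12 (SE 0.560). Of 14 transcription factors known to regulate Nppa or Nppb, 7 were lower and 7 higher, 0 past the threshold, with a median difference of 0.061. Srf, serum response factor, read 4.51, 3.89, 3.31 and 2.12 in RORasg/sg hearts 1 to 4, against 4.53, 4.80, 4.82, 4.99 and 5.10 in WT hearts 1 to 5. No RORasg/sg heart reached the lowest WT heart, though heart 1 came close to it, and the difference was -1.39 (SE 0.448, limma adjusted p = 0.326). Tbx20, a cardiac T-box factor, differed by -2.56 (SE 0.927), and on 1 of its 3 probes by 0.29.

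Likeness was taken on the brightest probe of each gene, so the dim Nppa probe has no part in it. The genes whose levels followed Nppb most closely over the 9 hearts, by Pearson correlation among 27679 genes, were AK013994 (0.970), C030006K11Rik (0.958), AK017799 (0.952), Mpnd (0.949) and Lsm4 (0.949). For Nppa they were XR_382315 (0.933), BC048679 (0.932), ENSMUST00000159850 (0.930), Gm5124 (0.917) and AK037292 (0.912). With Nppb, 2.05% of genes correlated above 0.8, and with Nppa 0.257% did. Among the members, Npr1 ran opposite to both, at -0.773 with Nppb and -0.624 with Nppa, while Corin correlated at 0.622 with Nppb and at -0.017 with Nppa. These correlations describe 9 arrays that share slides and brightness sets.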

How the data were processed

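RNA of 9 hearts (4 RORasg/sg, 5 WT) was amplified from 70 ng (NuGEN Ovation Pico WTA) and 5 ug of product labelled with Cy3, per the labels' protocols. The deposited spot intensity was background-subtracted by the authors with Feature Extraction 12.0.0.7 (protocol GE1_1200_Jun14, design 014868, grid build mm9), per the file headers, and is not scaled between arrays. The deposited series matrix held the same linear values, with a largest difference of 0, so its scale and direction are known. No spot was saturated.

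Outlier spots were left out (758 over the 9 arrays), log2 values of a probe's spots were averaged, each array's 75th percentile was subtracted, and probes well above background on at least 4 arrays were kept (36402 of 41174). Probes were named by accession through GRCm38.p6. The comparison of groups used the moderated test of limma 3.58.1 with an intensity trend, fitted per probe under R 4.3.3. Python 3.11.15, pandas 2.3.3 and matplotlib 3.10.9 made tables and figures. The number of arrays limits the precision. A gene's level in a list is its brightest kept probe. The text names every member probe, up to 4 genes of each list with the smallest p, Tie1 for its signal near background, and 5 genes most like Nppa and Nppb. The members, lists, tests and alternatives were chosen with earlier results of these data known. The fit was tested on simulated data.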

Additional observations from a re-analysis of the deposited data

Results flagged for a closer look

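Of the 26 sets of values examined (13 probes in the 2 groups), 2 held a heart far from the rest of its group by Dixon's criterion, which chance meets in about 1 in 20 groups. Both were WT heart 4, one of the dimmer arrays. For Corin its scaled log2 level was 0.40, and the next lowest WT heart read 3.29, a gap of 0.942 of the whole WT range. Without this heart the Corin difference was -2.43. For Npr3 on A_52_P400798 the level was -0.95, and the next highest WT heart read -2.82, a gap of 0.744 of the range, and the difference without it was -1.14. On the brightest Npr3 probe, A_51_P247184, the same heart was the lowest WT heart, at -2.54. The spread of the 4 RORasg/sg hearts met the criterion for 0 of the 13 probes.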

How the results depend on the processing

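Over 26 alternatives for each of the 7 genes (182 values), 171 kept their direction and side of the threshold, 4 passed it and 7 reversed. These are not separate checks of direction. Other probe filters, 1 probe per gene and a robust variance repeat the main difference and change only its p. The slide block, the replicate block and leaving out WT heart 5 share 1 difference per gene. Without scaling between arrays, Nppc was -0.20 and Npr1 -0.017, against a median of -0.26 over all probes. The mean of both probes put Nppa at 0.018. Npr3 was 0.036 within slide 1 and 0.0050 in the 4 dimmer arrays. With the brightness covariate Nppc was -0.055, and in the dimmer arrays it was -0.51. Array weights gave -1.66 for Nppb, -2.33 for Npr3 and -3.40 for Corin, each past the threshold, and leaving out RORasg/sg heart 1 gave -1.54 for Nppb, also past it. These fits called 17470 and 12846 of all 36402 probes. With array weights the dim Nppa probe (2.20) and Npr2 A_52_P565549 (1.25) passed it higher. Nppb A_52_P559955 (-1.36), Npr2 A_52_P489373 (-1.90) and Npr3 A_51_P356883 (-1.71) passed it lower. Without RORasg/sg heart 1, Nppb A_52_P559955 (-1.33) and Npr3 A_52_P400798 (-2.12) also passed it. Leaving out each heart in turn gave -1.41 to -0.96 for Nppa, -1.66 to -1.28 for Nppb, 0.14 to 0.64 for Nppc, 0.43 to 0.67 for Npr1, -1.01 to -0.35 for Npr2, -1.83 to -0.58 for Npr3 and -2.63 to -1.01 for Corin. Over all probes, 1 was called as designed, 4 without scaling, 17470 with array weights and 1371 in the 5 brighter arrays, and 0 with normexp, with probes above background on all arrays, with the mean of kept probes, with slide as a block, within slide 1 or 2, with the brightness covariate or in the dimmer arrays. Leaving out a heart gave 0 to 12846 calls, the highest without RORasg/sg heart 1. With the replicate number as a block, 2 probes were called and no member, at -1.14 for Nppa, -1.38 for Nppb and -1.70 for Corin. Same-numbered hearts correlated at -0.344 to 0.399, with 1 of 4 pairs over 0.1 and 1 best matched to its own number, so the number was not taken as a pairing. The cause of these changes was not tested. Signal over background limits Npr3 probe A_52_P400798, which 2 of the 4 RORasg/sg arrays read well above background. With normexp each Npr3 difference was smaller, at -0.56 on A_51_P247184, -0.46 on A_51_P356883 and -0.27 on A_52_P400798.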

Other observations

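Lists of other cell types held 0 genes past the threshold in limma. Of 7 fibroblast markers, 4 read higher on average in RORasg/sg hearts and 3 lower, with a median difference of 0.037 and mean levels of 1.78 to 3.03 in RORasg/sg and 1.61 to 2.18 in WT hearts. Col3a1, a fibrillar collagen, differed by 1.52 (SE 0.378) with every RORasg/sg heart above every WT heart, and by -0.054 on its other probe. The 6 smooth muscle and pericyte markers had a median of -0.56, the 6 leukocyte markers 0.38, the 3 measured erythroid markers -0.61, the 4 adipocyte markers 0.094 and the 5 skeletal muscle markers 0.0051, to be set against 0.41 for all genes. Of the 3 erythroid markers, 2 read lower and 1 higher. Alas2, the erythroid heme synthesis enzyme, differed by -4.42 (SE 1.12) with overlapping groups and 3 of 4 RORasg/sg arrays well above background, Hba-a1, an alpha globin, by -0.61 (SE 0.838), and Hbb-bt, a beta globin, by 0.34 (SE 0.404).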
